A study of Mus musculus with 76 samples.

Results

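The proteasome subunit genes are described here across 4 stages of early mouse development, in wild type and in the absence of maternal Ezhip. All rows of the deposited gene tables whose symbol reads Psm, a letter from a to g and a number were taken, which gave 48 of 48321 genes. No measured value entered that choice. By textbook role, the 48 genes comprise 8 for alpha subunits of the 20S core, 7 for its constitutive beta subunits, 4 for alternative beta subunits, 6 for ATPases of the 19S cap, 11 for its non-ATPase subunits, 3 for chaperones of 19S assembly, 4 for activators, 1 for an inhibitor and 4 for chaperones of 20S assembly.

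The proteasome is the protease that degrades ubiquitin-tagged proteins. Its 20S core is a barrel of alpha and beta rings, with the proteolytic sites on the beta subunits encoded by Psmb5, Psmb6 and Psmb7. The 19S cap binds ubiquitin chains, unfolds the substrate with the ring of Psmc ATPases and feeds it into the core. In immune and interferon-treated cells the catalytic sites are replaced by those of Psmb8, Psmb9 and Psmb10, while Psmb11 is the subunit of the thymus and Psma8 that of the testis. Psme1 and Psme2 form the PA28 activator, Psme3 the nuclear PA28 gamma, and Psme4 encodes PA200; Psmf1 encodes the inhibitor PI31. Around fertilization, clearance of maternal proteins is one of the known tasks of the ubiquitin system, and the 2-cell stage is when the mouse embryo begins major transcription of its own genome.

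The 76 libraries hold polyadenylated RNA of single oocytes, 2-cell (2C) embryos and blastocysts, and of single pieces of extraembryonic ectoderm (ExE), the trophoblast tissue above the epiblast, at day 6.5. Each was labelled WT or Ezhip matKO, that is, with the maternal supply of Ezhip knocked out; Ezhip, listed in the tables as AU022751, encodes an inhibitor of the Polycomb enzyme EZH2. There were 3 WT and 4 matKO oocytes (all labelled female), 11 WT (5 female, 6 male) and 12 matKO (6 female, 6 male) 2C embryos, 14 WT (6 female, 8 male) and 14 matKO (7 female, 7 male) blastocysts, and 10 WT (6 female, 4 male) and 8 matKO (5 female, 3 male) ExE pieces. How the deletion was made, the strain, the father's allele in matKO embryos and each library's litter or donor are not stated in the sources. The p-values therefore reflect library-to-library spread, part of which may be technical.

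Total counts per library ran from 5273706 to 26484630 in oocytes, 1049224 to 14127560 in 2C embryos, 4061206 to 31985958 in blastocysts and 2736211 to 26674539 in ExE. Ezhip itself (AU022751) averaged 1280 counts per 1e6 (CPM) in WT and 0.282 CPM in matKO oocytes, with edgeR's quasi-likelihood adjusted p of 5.3e-07. Markers of cumulus and granulosa cells, the ovarian cells around the oocyte, summed to between 479 and 1890 CPM in WT and between 250 and 698 CPM in matKO 2C embryos; 3 of their 15 genes were at 0 in all WT and 5 in all matKO embryos. In ExE, 16 markers of decidua and uterine stroma, the maternal tissue around the implanted embryo, summed to between 38.4 and 185 CPM in WT and between 49.5 and 1120 CPM in matKO, none of them at 0 throughout a group. The ExE pieces had 230 to 1550 CPM over the 11 ExE markers, none at 0 throughout a group, but also 271 to 2050 CPM over epiblast markers and 1250 to 12900 CPM over markers of visceral endoderm, the layers next to ExE. By library identifier, all WT ExE pieces carried the prefix D1042C and all matKO pieces D707T; the effect of prefix cannot be told apart from that of genotype in ExE. In whole embryos and tissue pieces, fewer cells of a type and less RNA per cell cannot be told apart.

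RefSeq promoters (GRCm38.p6, the coordinates of mm10) were at hand for 40 of the 48 genes, and the 250 bases before each start were searched on both strands. CCGGAA, the core letters of ETS-family sites, stood in 16 of the 40 (40%) beside 12.2% of all 27025 promoters. The next windows show both forms of that match, with the matched letters in capitals: Psmd2 holds a separate copy on each strand, 82 and 25 bases before the start, and Psmd4 a palindrome of overlapping copies.
Psmd2, chr16:20651550-20651651, plus strand: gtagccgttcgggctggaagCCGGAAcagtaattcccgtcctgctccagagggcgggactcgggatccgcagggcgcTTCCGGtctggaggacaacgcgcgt
Psmd4, chr3:95042714-95042761, minus strand: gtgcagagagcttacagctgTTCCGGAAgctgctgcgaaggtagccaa
The letters TGACNNNGC, the fuller form of the antioxidant response element bound by NRF1 (Nfe2l1) and NRF2, stood in 5 of the 40 (12.5%) beside 10.1% of all promoters. The shorter TGANNNNGC, which contains every TGACNNNGC match, stood in 35% beside 35.1%. CCAAT stood in 35% beside 34.5%. The 5 were Psmb5, Psmb6, Psmc6, Psmd9 and Psmd12. The RefSeq start of Psmd9 lay far inside the deposited gene interval, at 58777 bases from its 5' end in genome coordinates. Psmd5 (-4006) and Psmf1 (-2876), on the minus strand, also had starts inside the gene. For these genes the bases searched may not be the main promoter. Windows of Psmb5, Psmb6 and Psmc6 are shown with the match in capitals.
Psmb5, chr14:54618014-54618062, minus strand: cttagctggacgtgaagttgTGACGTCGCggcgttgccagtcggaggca
Psmb6, chr11:70525328-70525356, plus strand: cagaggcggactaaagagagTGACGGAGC
Psmc6, chr14:45329577-45329625, plus strand: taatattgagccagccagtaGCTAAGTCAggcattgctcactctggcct
In Psmb5 and Psmb6 the match lay 47 and 9 bases before the start and in Psmc6, on the other strand, 227 bases before it. The promoters of the 40 genes averaged 57.3% GC beside 53.0% for all promoters, and a match is a string of letters, not a measured binding site.

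By group median, the 48 genes took their smallest share of all counts in 2C embryos and their largest in blastocysts. Scaled within each stage (trimmed mean of M-values, TMM), their summed level had a median of 6170 CPM among the 8 WT 2C embryos with identifier numbers 28 to 36 and ranged from 10400 to 13400 CPM in the 3 embryos numbered 25 to 27, a division of the WT embryos that was made after their values were seen. As a share of all counts, the 48 genes had a median of 0.785% in WT oocytes, 0.679% in WT 2C embryos, 1.931% in WT blastocysts and 1.092% in WT ExE; the matKO medians were 0.859%, 0.482%, 1.93% and 1.0%.

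**Figure D1:**
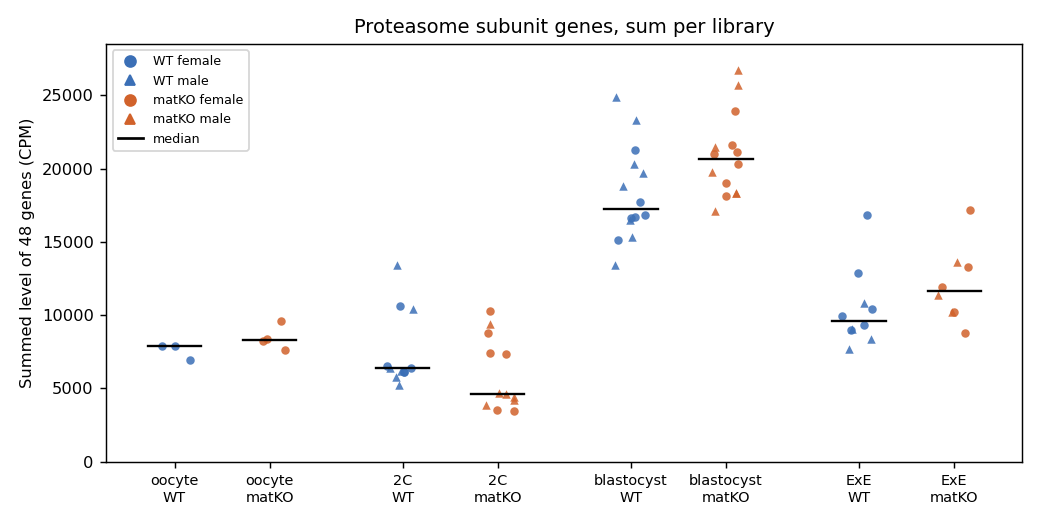
Summed level of the 48 proteasome genes (CPM, scaled within stage) in each of the 76 libraries, by stage and genotype; circles are libraries labelled female, triangles male, and bars are group medians. The 2C embryos divide within each genotype, with WT libraries at 5260 to 6530 and 10400 to 13400 CPM and matKO libraries at 3460 to 4690 and 7360 to 10300 CPM.

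Per kilobase of exon, the most abundant WT transcripts were those of alpha and beta subunits at every stage. Psma2 led in oocytes with 571 CPM per kb, followed by Psmb1 with 351 and Psma6 with 247. Psma6 led in 2C embryos (373), blastocysts (673) and ExE (669), with Psmb1 next at each of them (309, 639 and 557). The lowest places were held by Psma8, Psmb8, Psmb9 and Psmb11, each below 1.2 CPM per kb in every WT group. Neighbours at the top differed little against their spread: in WT blastocysts Psmb4 followed with 610, Psma2 with 604 and Psmb5 with 542 CPM per kb, and the SD of Psmb4 was 309 CPM on a mean of 1190 CPM before division by length. The length used is that of all annotated exons together, which understates genes with many isoforms.

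Between oocyte and 2C embryo some proteasome genes rose and others fell, in shares near those of all genes. In WT, 8 of 46 members tested were higher and 10 lower in 2C embryos by edgeR's quasi-likelihood test, with a median log2 change of -0.27, beside 39.1% of 16620 genes called (22.8% higher, 16.3% lower) and a median of 0.03 over all genes. Scaling by relative log expression (RLE) in place of TMM shifted the median of all genes to -0.24 and gave 5 higher and 15 lower members, where 39.9% of genes were called; Psmd3, Psmb5 and Psme4 were then no longer called. Leaving out any 1 of the 3 WT oocytes gave 14 called members, where 4904 to 5093 genes were called, beside 6504 with all libraries. Leaving out the WT embryos numbered 25 to 27 gave 10 higher and 19 lower, where 52.7% of genes were called.

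The steepest falls from oocyte to 2C embryo were in Psmd10, Psma7, Psmg4 and Psmf1. Psmf1, the PI31 inhibitor (mm10, chr2:151715812-151744186, minus strand), stood at 370, 390 and 343 CPM in the WT oocytes and between 27.2 and 59.5 CPM, with a median of 46.6, in the 11 WT 2C embryos. All 2C embryos lay below all oocytes, and the log2 change was -3.04 ± 0.31 (SE), with an edgeR adjusted p of 2.8e-07. Here and in the later steps, CPM were scaled within each stage. Levels and overlap between stages are therefore not on the common scale of the fitted log2 changes. Psma7, an alpha ring subunit, fell from 535, 274 and 370 CPM to between 16.2 and 195 CPM (median 45.8), again without overlap, with a log2 change of -3.38 ± 0.54. Psmd10, which encodes gankyrin, a 19S assembly chaperone, fell from 82, 78.4 and 52.5 CPM to a median of 1.73 CPM, and the highest 2C embryo had 6.41 CPM. Psmg4, a chaperone of 20S assembly, fell from 33.8, 59.4 and 46.8 CPM to between 1.39 and 23.6 CPM (log2 change -3.23 ± 0.71, edgeR adjusted p 0.0014). Psma2, Psmg1, Psmc3, Psmb2, Psmb6 and Psmd9 completed the members that fell.

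The members that rose into the 2C stage included 4 of the 11 non-ATPase genes, namely Psmd3, Psmd7, Psmd11 and Psmd13. Psmd7, part of the 19S lid, rose from 73.4, 51.8 and 69.6 CPM in WT oocytes to between 161 and 524 CPM (median 263) in 2C embryos. Psmd11, another lid subunit, rose from 69.2, 54.8 and 68.8 CPM to between 184 and 520 CPM. Neither gene's oocytes overlapped its 2C embryos, and the log2 changes were 2.05 ± 0.38 and 1.98 ± 0.35. Among the activators, Psme1 rose by a log2 change of 2.42 ± 0.50 and Psme4 by 1.10 ± 0.32, with edgeR adjusted p of 0.00084 and 0.012. Psmb5, the subunit with the chymotrypsin-like site, stood at 123, 54.2 and 92.3 CPM in oocytes and between 140 and 429 CPM in 2C embryos, all above every oocyte (log2 change 1.10 ± 0.39, edgeR adjusted p 0.032), a call lost without WT oocyte 2 or 3 (adjusted p 0.16 and 0.14), with DESeq2 (0.088) and without a count filter (0.084). Psme4 lost its call without WT oocyte 1 or 3 (0.065 and 0.070). Psmb6, the subunit with the caspase-like site, went the other way, from 410, 303 and 422 CPM to a median of 140 CPM (log2 change -1.19 ± 0.30). Psmb7, which carries the trypsin-like site, had a log2 change of -0.61 ± 0.35 and an edgeR adjusted p of 0.18.

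The matKO libraries, which share none with the WT step, gave 7 higher and 13 lower of 45 members tested, beside 49.4% of 14864 genes (27.3% higher, 22.1% lower). All 7 of the higher members were among the 8 of the WT step, and 9 of the 13 lower ones were among the 10 of the WT step. Psmf1 changed by -3.82 ± 0.31, Psma7 by -4.03 ± 0.79, Psmd10 by -6.37 ± 0.76 and Psmd7 by 1.95 ± 0.37 on the log2 scale.

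Nearly every structural gene of the core and the cap was higher in the blastocyst than in the 2C embryo. In WT, 38 of 45 members tested rose and 3 fell, with a median log2 change of 1.94, beside 72.8% of 14235 genes called (34.3% higher, 38.5% lower) and a median of -0.11. All 7 tested alpha genes, all 7 constitutive beta genes, all 6 ATPase genes and all 11 non-ATPase genes rose. The ATPase genes had the highest median of these groups, 2.84, and the non-ATPase genes one of 1.79. Within the single identifier prefix shared by both stages, D707T, 39 members rose and 2 fell, where 57.3% of genes were called.

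**Figure D2:**
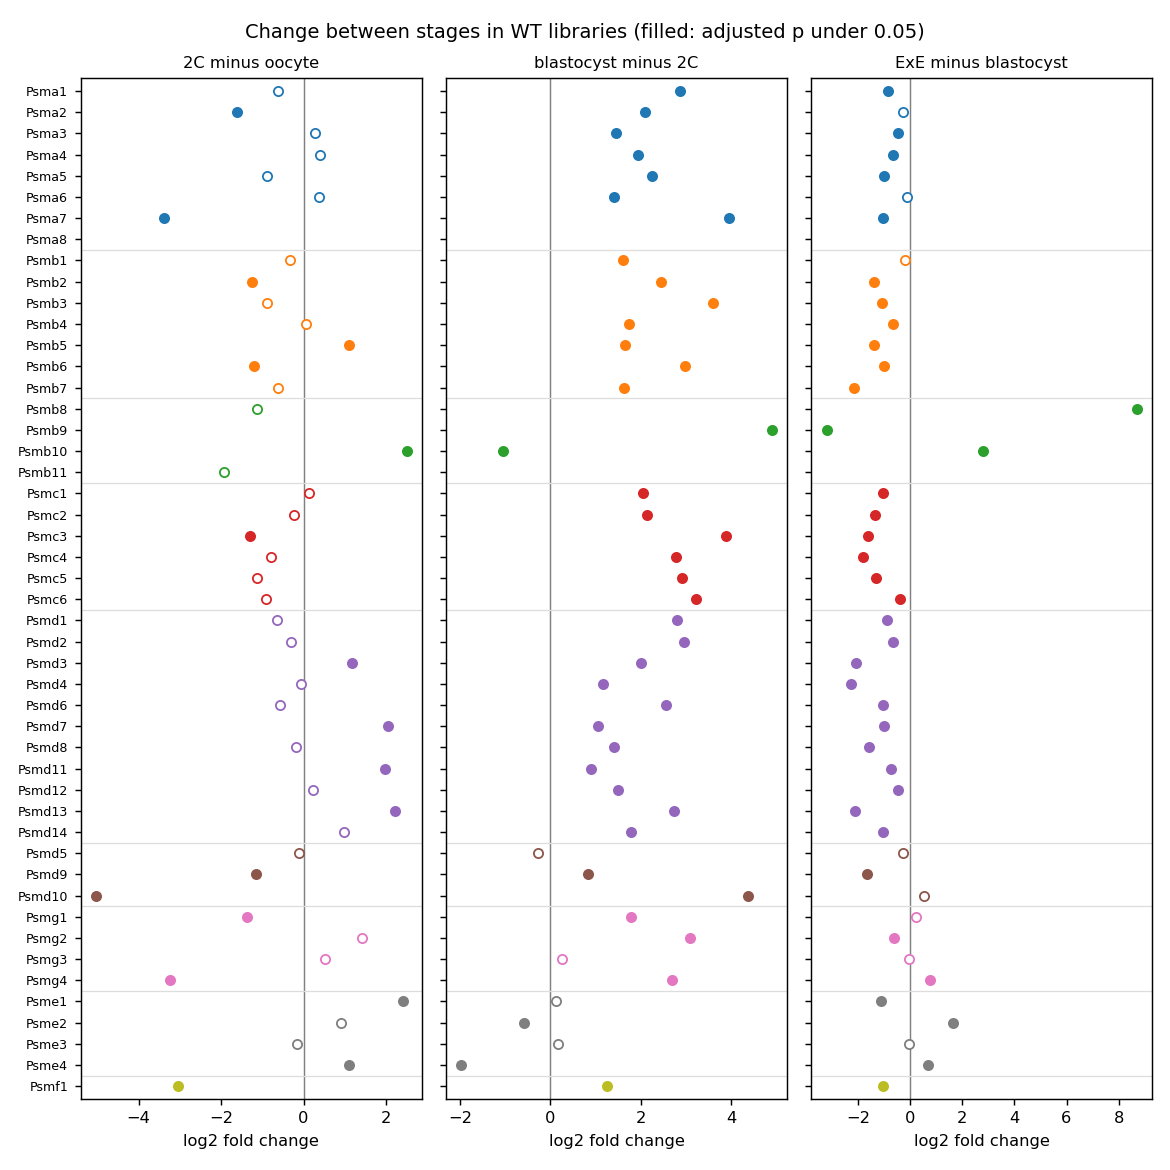
Log2 fold change of each proteasome gene from oocyte to 2C, 2C to blastocyst and blastocyst to ExE in WT libraries, with genes in rows grouped and coloured by role; filled points passed edgeR's adjusted p of 0.05 and genes without a point were not tested. The middle panel has 38 filled points to the right of 0 and 3 to the left, and the right panel 5 to the right and 33 to the left.

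Psma1 rose from between 112 and 298 CPM (median 177) in WT 2C embryos to between 731 and 1310 CPM (median 898) in WT blastocysts. The groups did not overlap, and the log2 change was 2.88 ± 0.16 with an edgeR adjusted p of 8.2e-15. Psmc6, an ATPase of the 19S base, rose from a median of 65.8 to 490 CPM (log2 change 3.23 ± 0.19), and Psmc3, another, from 58.9 to 720 CPM (3.88 ± 0.30). Psmb6 rose by 2.99 ± 0.20 on the log2 scale, Psmb5 by 1.66 ± 0.20 and Psmb7 by 1.64 ± 0.21. Psmd1 and Psmd2, which encode the large scaffold subunits of the base, rose by 2.81 ± 0.19 and 2.95 ± 0.23. Psmg2, a 20S assembly chaperone, rose by 3.09 ± 0.21.

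Psma7 and Psmd10, which had fallen into the 2C stage, rose out of it, in a step that shares its 2C libraries with the earlier one. Psma7 reached between 542 and 810 CPM in WT blastocysts (log2 change 3.95 ± 0.30) and Psmd10 between 17.6 and 51.3 CPM (4.37 ± 0.51). The tested members not called higher in WT were the 4 activator genes, Psmb10, Psmd5 and Psmg3. Psme4 (mm10, chr11:30771726-30880361, plus strand), which encodes PA200, fell from between 294 and 839 CPM (median 546) in WT 2C embryos to between 64 and 137 CPM (median 91.2), with no overlap and a log2 change of -1.97 ± 0.16 (edgeR adjusted p 1.5e-11). Psme2 fell too, with a log2 change of -0.59 ± 0.22 and an adjusted p of 0.018, a call lost within D707T (-0.54, adjusted p 0.23). Psme1 and Psme3 had changes of 0.12 ± 0.21 and 0.17 ± 0.13 with edgeR adjusted p of 0.60 and 0.26. In matKO, 41 of 45 members rose and 1, Psme4, fell, with a median of 2.59, beside 75% of 13265 genes (36.6% higher, 38.5% lower); all 38 members that rose in WT were among the 41. Psme1 was called higher there (1.12 ± 0.45, edgeR adjusted p 0.025), a call that depended on the matKO 2C embryos numbered 42 to 48: without them its log2 change was -0.08 (adjusted p 0.80).

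From blastocyst to ExE the direction turned for most of the same groups. In WT, 33 of 46 members tested fell and 5 rose, with a median log2 change of -0.94, beside 67% of 14083 genes called (35% higher, 32% lower) and a median of 0.10. All 6 ATPase genes and all 11 non-ATPase genes fell, as did 6 of 7 constitutive beta genes and 5 of 7 tested alpha genes. These WT stages differ in identifier prefix, since no WT blastocyst carried the prefix of WT ExE, and stage and prefix cannot be told apart. In matKO, 29 of 46 members fell and 6 rose, with a median of -0.83, beside 55.4% of 13473 genes (28.7% higher, 26.7% lower). Within the prefix D707T, which matKO ExE and part of the matKO blastocysts share, 28 fell and 5 rose, where 56.8% of genes were called. Of the 33 members that fell in WT, 27 were among the 29 that fell in matKO, that is 81.8% of the WT list and 93.1% of the matKO list.

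Psmd13, a lid subunit, fell from between 271 and 507 CPM (median 339) in WT blastocysts to between 46.9 and 149 CPM (median 70.5) in WT ExE. All ExE pieces lay below all blastocysts, with a log2 change of -2.13 ± 0.19 and an edgeR adjusted p of 1.4e-10. Psmd3, also of the lid, fell from a median of 491 to 120 CPM (-2.09 ± 0.19), and the ATPase gene Psmc4 from 711 to 197 CPM (-1.80 ± 0.20). Psmb7 changed by -2.15 ± 0.25, Psmb5 by -1.38 ± 0.20 and Psmb6 by -1.0 ± 0.19. Reads in the 11.8% of Psmb7 exon bases that overlap Nek6, a kinase gene on the opposite strand, cannot be assigned without the strand setting, which no source states.

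The 5 members that rose into WT ExE were Psmb8, Psmb10, Psme2, Psme4 and Psmg4. Psme2 rose from between 17.7 and 32.2 CPM (median 27.5) to between 45.6 and 156 CPM (median 73.7), without overlap, by a log2 change of 1.64 ± 0.19 (edgeR adjusted p 1.8e-08). Its partner Psme1 moved the other way, from a median of 91.3 to 47.6 CPM (-1.10 ± 0.21, adjusted p 3.4e-05). Psme4 rose by 0.69 ± 0.15 on the log2 scale. Rows for a processed copy of this family, Psme2b, stand in the tables, and no source states how reads matching both were counted, so the level of Psme2 is uncertain.

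The alternative catalytic genes each had a course of their own. Psmb10 had 7.64, 5.52 and 10.2 CPM in WT oocytes, between 19.1 and 125 CPM in WT 2C embryos, between 5.11 and 40.1 CPM in WT blastocysts and between 64.1 and 201 CPM in WT ExE. It rose into the 2C stage (log2 change 2.50 ± 0.65, edgeR adjusted p 0.0052), fell into the blastocyst (-1.05 ± 0.37, adjusted p 0.013) and rose again into ExE (2.80 ± 0.34, adjusted p 3.9e-08). All WT ExE pieces lay above all WT blastocysts. The fall into the blastocyst rested on the WT 2C embryos numbered 25 to 27 and on prefix: without those embryos it was -0.53 (adjusted p 0.21), and within D707T -0.11 (adjusted p 0.85). In matKO the steps into the 2C stage and into ExE were called in the same direction (2.56 ± 1.00 and 2.13 ± 0.54), while the step into the blastocyst was 0.97 ± 0.64 with an adjusted p of 0.17. The matKO rise into the 2C stage had an adjusted p of 0.040; the call was lost without matKO oocyte 1, 2 or 4 (0.080 to 0.11), and without the 2C embryos numbered 37 to 41 the log2 change was 1.01 (0.47).

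Psmb8 and Psmb9 lie side by side in the MHC region (mm10, chr17:34197721-34201454, plus strand, and chr17:34181988-34187764, minus strand), apart from Psmb10 (chr8:105935728-105938392, minus strand). Psmb8 had 0 counts in all 14 WT blastocysts and 344 counts over the 10 WT ExE pieces, each of which had some. Against a floor of 3 counts over the blastocyst group, 0.012 CPM, the pooled ExE level of 3.07 CPM was at least 264-fold higher, where floor and fold cover counting error only. In matKO, 1 count in 14 blastocysts stood against 498 counts in 8 ExE pieces. Psmb9 followed the reverse course. It had 12 counts in 1 of 11 WT 2C embryos and rose into the blastocyst by a log2 change of 4.90 ± 1.05. WT blastocysts had between 0.516 and 19.1 CPM (median 2.69) and WT ExE at most 0.772 CPM, a further log2 change of -3.20 ± 0.62 (edgeR adjusted p 5.7e-05). Of its exon bases, 5.8% overlap Tap1, the peptide transporter gene on the opposite strand. Psmb11 and Psma8 stayed low throughout, with highest library values of 4.77 CPM for Psmb11 in a WT oocyte and 3.28 CPM for Psma8 in WT ExE; Psma8 was at 0 in all WT oocytes and 2C embryos.

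**Figure D3:**
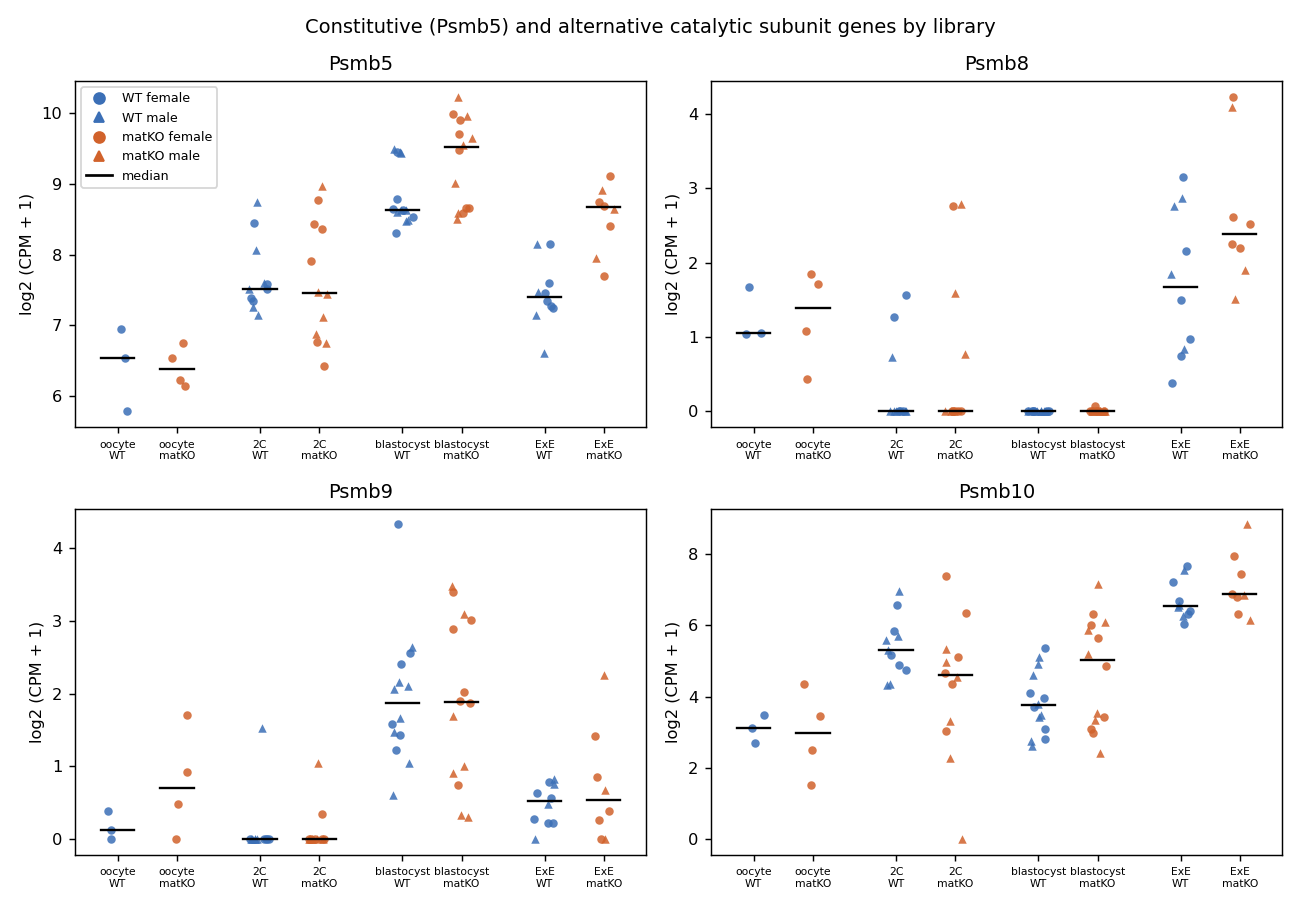
Level of Psmb5 and of the alternative catalytic genes Psmb8, Psmb9 and Psmb10 in each library, as log2 of CPM plus 1, by stage and genotype; circles are female, triangles male, and bars are medians. Psmb8 lies at 0 in all 14 WT blastocysts and above 0 in all 10 WT ExE pieces, while Psmb9 is highest in blastocysts.

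In oocytes no proteasome gene passed the test between genotypes, with 3 libraries against 4. Of 46 members tested 0 passed edgeR's quasi-likelihood test at an adjusted p of 0.05, beside 0.0202% of 14838 genes, and DESeq2 also called 0 members, with 0.243% of genes. The median log2 change, matKO over WT, was 0.16 beside 0.02 for all genes. The 1 member under an unadjusted p of 0.05 was Psmd4, a ubiquitin receptor of the 19S cap. It had 347, 335 and 380 CPM in WT and 430, 457, 494 and 582 CPM in matKO oocytes, so that the groups did not overlap (log2 change 0.47 ± 0.17, edgeR adjusted p 0.79). The groups of Psmb7, Psmc2 and Psmg3 did not overlap either: Psmb7 had 115, 96.7 and 121 CPM in WT and 130, 133, 125 and 127 CPM in matKO. The share of all genes with such groups was not counted, so this is not read as a difference between genotypes. Psmb5 had 69.5, 73.7, 91.6 and 107 CPM in matKO oocytes, within the WT range, and Psmf1 422, 380, 323 and 696 CPM.

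In 2C embryos most proteasome genes had lower means in matKO, but none passed the test. Of 44 members, 0 were called by edgeR at an adjusted p of 0.05, beside 0.641% of 13563 genes. DESeq2 called 2, Psmc2 and Psmc4, lower, with 4.98% of genes. With the cumulus and granulosa markers, which were lower in matKO, as a covariate, edgeR called 4 of 46 members lower, Psmc4 among them (adjusted p 0.024), and 3.47% of genes. The median log2 change was -0.41 beside 0.02 for all genes, and 4 of 44 members had a positive change. Psmc4, an ATPase gene, had the smallest p among the members: 76 to 473 CPM in WT (median 121) and 9.16 to 161 CPM in matKO (median 42.6). All WT values lay above those of 8 of the 12 matKO embryos, and the log2 change was -1.36 ± 0.46 with an edgeR adjusted p of 0.15.

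The matKO 2C embryos divided by their identifier numbers, and the proteasome genes divided with them. The 7 embryos numbered 42 to 48 had 3460 to 4690 CPM over the 48 genes, below every WT embryo, while the 5 numbered 37 to 41 had 7360 to 10300 CPM. The same 7 embryos had 916 to 2170 CPM over the 2-cell marker genes, beside 190 to 610 CPM in WT, and 2590 to 3860 CPM over the oocyte markers, beside 1260 to 2890 CPM in WT. Their total counts were 1476150 to 4653399, beside 4189675 to 10967492 in the other 5. The part of these differences in the proteasome values was not tested.

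**Figure D4:**
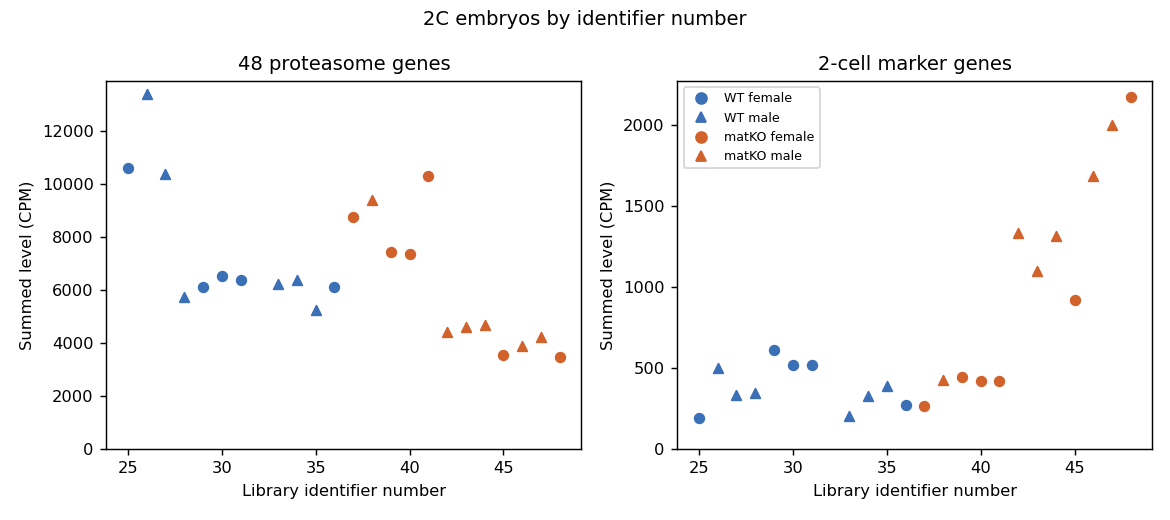
Summed level (CPM) of the 48 proteasome genes (left) and of the 2-cell marker genes (right) in each 2C embryo against its library identifier number; WT in blue, matKO in orange, circles female, triangles male. The 7 matKO embryos numbered 42 to 48 have 3460 to 4690 CPM on the left and 916 to 2170 CPM on the right.

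Without the embryos numbered 42 to 48, edgeR called 0 of 44 members, beside 0.125% of genes, and the median log2 change was 0.26; Psmc4 then had -0.16. Without those numbered 37 to 41, it called 29 members lower and 1, Psme4, higher, beside 25% of genes, with a median of -1.25. These embryos were set apart by values measured in them, so neither count is a comparison of genotypes. In the latter fit Psma6, the most abundant transcript per length, had -2.49, Psmc2 -2.22 and Psme1 -2.90, while Psmd3 had 0.11 with an adjusted p of 0.76. Psmb5 had 0.07 over all embryos and -0.80 in that fit.

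Immune cell markers reached 3100 CPM in 1 matKO 2C embryo, female 4, and at most 118 CPM in the others. That embryo had the highest Psmb10 level of all 2C embryos, 167 CPM, and 5.81 CPM of Psmb8. Other 2C embryos had high levels beside lower immune markers: WT male 1 had 125 CPM of Psmb10 with markers at 0.26 CPM, and matKO male 5 had 5.89 CPM of Psmb8 with markers at 23.5 CPM. The part of the immune markers in these values was not tested. Over all embryos, Psmb10 had a log2 change of -0.69, matKO over WT, without passing the test.

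In blastocysts 2 of 45 members differed between genotypes, Psmd10 lower and Psmd8 higher in matKO, beside 6.13% of 13825 genes called (2.65% higher, 3.48% lower). Of 9 trophectoderm markers 5 were lower and 0 higher in matKO, and their part in these values was not tested. The median log2 change was 0.06 beside -0.03 for all genes. Psmd10 had 17.6 to 51.3 CPM in WT (median 35.2) and 1.89 to 34.9 CPM in matKO (median 10.9). Of the 14 matKO blastocysts 10 lay below every WT blastocyst, and the log2 change was -1.17 ± 0.32 with an edgeR adjusted p of 0.024. Psmd10 lies on chromosome X, 140948429 to 140956728 on the minus strand (mm10). Its median was 35.2 CPM in WT and 11.3 CPM in matKO females and 32.5 and 10.5 CPM in males.

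Psmd10 was called lower within the prefix D405T and missed the threshold within D707T. Within D405T, WT blastocysts had 26.8 to 51.3 CPM (n = 10) and matKO 8.6 to 25.2 CPM (n = 6), with no overlap and a log2 change of -1.28 ± 0.23 (edgeR adjusted p 0.0033; 5.65% of genes called). Within D707T, WT had 17.6 to 22.4 CPM (n = 4) and matKO 1.89 to 34.9 CPM (n = 8), with -0.96 ± 0.65 and an adjusted p of 0.54 (1.11% of genes called). Leaving out matKO male 3 gave -1.09 and an adjusted p of 0.054, and no other single library ended the call.

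Psmd8, a lid subunit gene, had 367 to 821 CPM in WT (median 596) and 577 to 1020 CPM in matKO (median 907). These pooled medians mix prefix with genotype. Under D405T, Psmd8 had a median of 529 CPM in WT (n = 10) and 630 CPM in matKO (n = 6). Under D707T, its median was 732 CPM in WT (n = 4) and 962 CPM in matKO (n = 8). With prefix and sex in the fit, its log2 change was 0.31 ± 0.09 with an edgeR adjusted p of 0.034. The call was lost without any 1 of 6 libraries (WT females 2 and 5, WT males 5 and 6, matKO female 1 and matKO male 3), with an adjusted p of up to 0.078. Among all alternative fits, 12 lost the Psmd8 call and 26 kept it. The losses included D707T alone, females alone, males alone and the fit without a count filter. Psmb5 levels differed between the prefixes: its median was 390 CPM in WT and 394 CPM in matKO under D405T and 698 and 891 CPM under D707T, and its log2 change in the fit with prefix was 0.21 ± 0.10 (edgeR adjusted p 0.21). What the prefix stands for is not stated, and the cause of that difference was not tested.

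ExE had the most proteasome genes that differed between genotypes, in a comparison where many genes did. Its WT and matKO pieces also differed throughout in identifier prefix. Genotype and prefix therefore cannot be told apart for any of the ExE differences below. There, 14 of 45 members (31.1%) were called, 10 higher and 4 lower in matKO, beside 26.2% of 13111 genes (14.9% higher, 11.4% lower). The median log2 change was 0.30 beside -0.07 for all genes. Higher were the beta genes Psmb3, Psmb5 and Psmb6, the ATPase gene Psmc3, the non-ATPase genes Psmd3, Psmd4 and Psmd13, the chaperone gene Psmd9, the activator gene Psme1 and the inhibitor gene Psmf1. Lower were Psmc6, Psmd11, Psmd10 and Psme4. None of the 7 tested alpha genes passed, with changes from -0.34 to 0.37.

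Psmd3 was the member with the smallest p and the only one whose groups did not overlap. How many of all genes had groups without overlap in ExE was not counted, so that is not read as a result about the members. It lies at chr11:98682554-98695979 on the plus strand (mm10). It had 85.7 to 156 CPM in WT (median 120) and 188 to 335 CPM in matKO (median 299), with a log2 change of 1.3 ± 0.18 and an edgeR adjusted p of 2.6e-05. Psmd13 had 46.9 to 149 CPM in WT and 128 to 407 CPM in matKO, where 7 of 8 matKO pieces lay above every WT piece (1.49 ± 0.25, adjusted p 0.00020). Psme1 had 19.7 to 64.6 CPM in WT and 57.5 to 152 CPM in matKO, also with 7 of 8 above every WT piece (1.34 ± 0.23, adjusted p 0.00027). Of the exon bases of Psmd13, 10.1% overlap Sirt3 on the opposite strand.

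The catalytic genes Psmb5 and Psmb6 were both higher in matKO ExE. Psmb5 had 96.5 to 284 CPM in WT (median 168) and 207 to 553 CPM in matKO (median 406), with a log2 change of 1.11 ± 0.23 and an edgeR adjusted p of 0.0012. Psmb6 had 227 to 720 CPM in WT (median 397) and 593 to 1180 CPM in matKO (median 758), with 0.97 ± 0.21 and 0.0021. Both genes' groups overlapped, and pseudogene rows for Psmb5 and Psmb6 stand in the tables, so their levels are uncertain to the extent that reads match both. Psmb7 had 1.06 ± 0.47 and missed the threshold (adjusted p 0.10), with matKO pieces from 2.25 to 175 CPM around a WT range of 16 to 81 CPM. Psmc6 went the other way: 221 to 522 CPM in WT (median 315) and 131 to 323 CPM in matKO (median 195), with -0.78 ± 0.20 and an edgeR adjusted p of 0.0075. Any part of promoter matches in these changes was not tested.

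Of the others with per-library values, Psmf1 had 24.7 to 55.9 CPM in WT and 38 to 107 CPM in matKO (log2 change 0.73 ± 0.21, edgeR adjusted p 0.014). Psmd4 had 61.1 to 245 CPM in WT and 171 to 469 CPM in matKO (1.37 ± 0.30). Psmd9, of whose exon bases 25.5% overlap the antisense gene Gm26745, which had 0 counts, rose by 0.67 ± 0.18. Psme4 had 85.3 to 190 CPM in WT and 93.3 to 144 CPM in matKO, a change of -0.49 ± 0.17 with an adjusted p of 0.032. Psmb8 had 1.29 ± 0.58 and Psmb10 0.64 on the log2 scale, and neither passed.

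**Figure D5:**
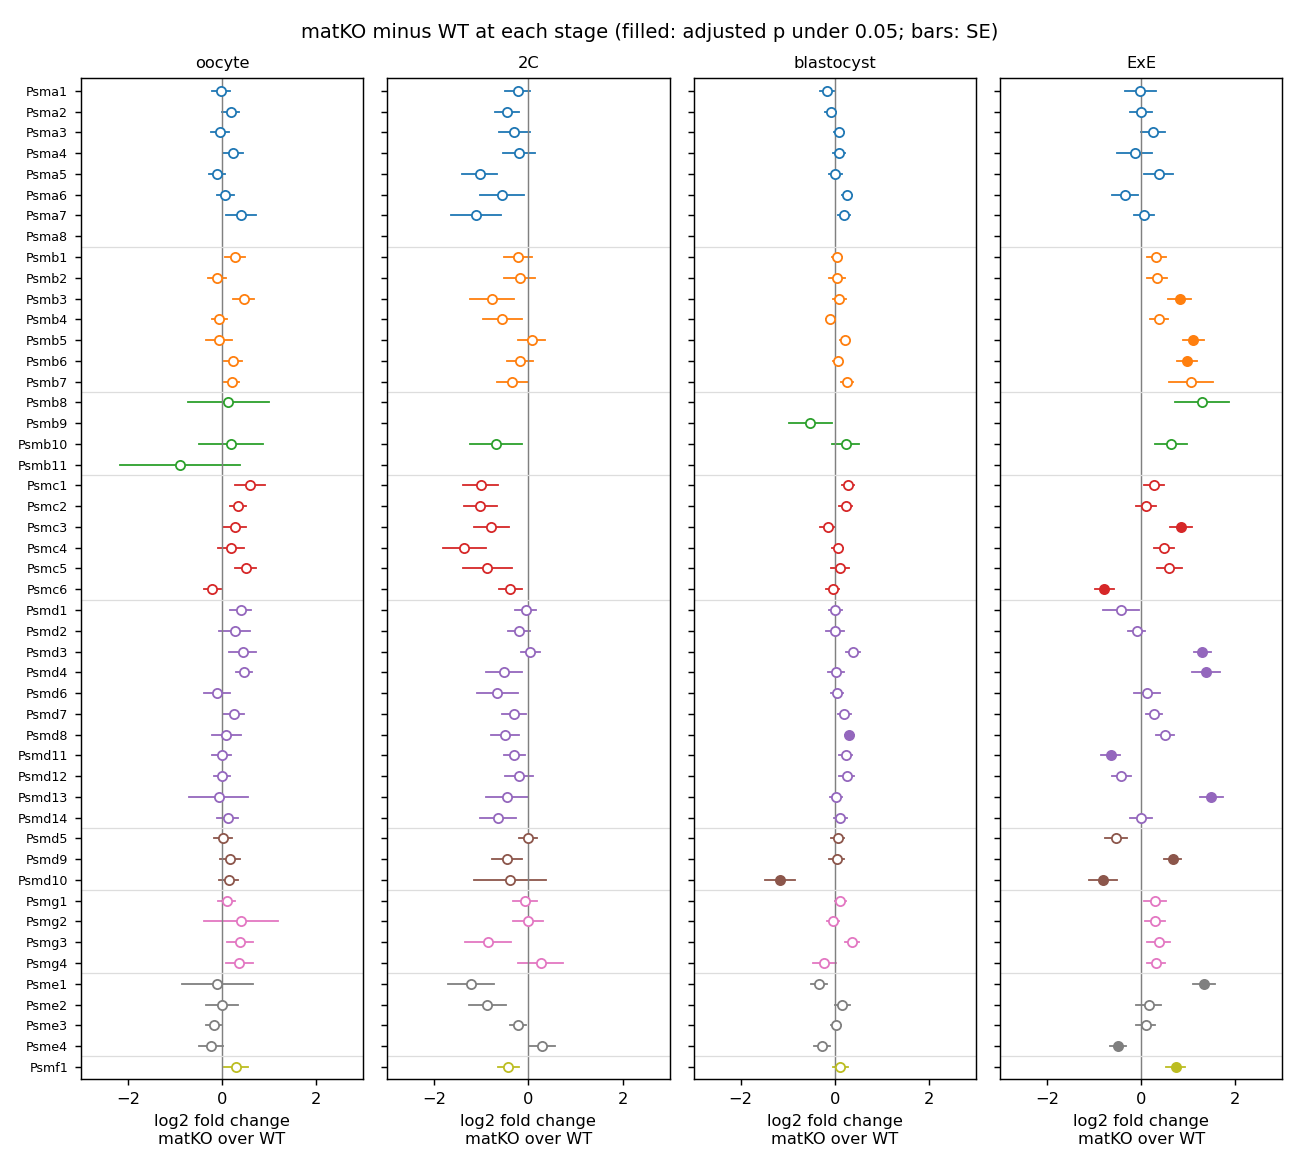
Log2 fold change, matKO over WT, of each proteasome gene at the 4 stages, with genes in rows grouped by role; bars are standard errors and filled points passed edgeR's adjusted p of 0.05. No point is filled in oocytes and 2C embryos, 2 are filled in blastocysts and 14 in ExE.

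The ExE calls shrank when decidual marker levels or sex entered differently. Of 11 tested decidua and stroma markers 8 were higher in matKO ExE, with a median log2 change of 2.90. With the mean log2 level of all 16 listed markers, tested or not, as a covariate, 6 members were called higher and 0 lower, beside 9.66% of 15046 genes. They were Psmd3 (1.40), Psmd13 (1.55), Psme1 (1.5), Psmd4 (1.45), Psmb5 (1.08) and Psmb6 (0.99). The same 6 were called in females alone, where 10.3% of genes were, and Psme1 alone in males, where 3.11% were. Psmd10 lost its call without any 1 of 10 libraries, with -0.44 (adjusted p 0.10) without WT female 6, which had 161 CPM of it against at most 60 CPM in the other WT pieces. Psme4 lost its call without any 1 of 6 libraries, with adjusted p from 0.050 to 0.061. WT female 6 and matKO female 2 had the highest sums of the 48 genes in ExE, 16800 and 17200 CPM; without both, 11 members were called higher and 3 lower, where 21.7% of genes were called.

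The difference between genotypes was not found to depend on sex for any member. In the genotype-by-sex test edgeR called 0 members in 2C embryos, blastocysts and ExE, beside 0%, 0.007% and 0% of genes; 1, 0 and 0 members had an unadjusted p under 0.05, and DESeq2 called 0 members at each stage, with 0%, 0.063% and 0.00706% of genes.

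Other genes of the proteasome and ubiquitin pathway were followed through a list of their own. Nfe2l1, the transcription factor that drives subunit genes when the proteasome is inhibited, had log2 changes, matKO over WT, of 0.33 ± 0.38 in oocytes, 0.47 ± 0.27 in 2C embryos, 0.90 ± 0.34 in blastocysts and 0.44 ± 0.22 in ExE, with edgeR adjusted p of 0.93, 0.44, 0.12 and 0.15. In ExE, 7 of the 32 tested genes were higher and 5 lower in matKO, beside 14.9% and 11.4% of all genes, with a median of -0.09. Adrm1, a ubiquitin receptor of the 19S cap, had means of 120 CPM in WT and 348 CPM in matKO (1.59 ± 0.29, adjusted p 0.00040). Ubb, which encodes ubiquitin, had 395 and 1040 CPM (1.42 ± 0.21), and Bag6, a chaperone that hands misfolded proteins to degradation, 36.6 and 87.4 CPM (1.29 ± 0.19). In blastocysts 2 of 33 were higher, where 2.65% of all genes were, namely Zfand2a (0.73 ± 0.13) and Ubxn1 (0.53 ± 0.13). In 2C embryos 1 of 32 was lower, where 0.641% of all genes were called in either direction. It was Txnl1, a thioredoxin-like protein of the 19S cap (-1.12 ± 0.27, adjusted p 0.046). Leaving out either numbered run of matKO 2C embryos gave 0.125% or 25% of genes called. The Txnl1 values of those fits are not given, so its call is not read as a difference between genotypes. In oocytes 0 of 32 were called by edgeR.

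Genes of antigen presentation and of the protein-folding stress response were set beside the alternative and constitutive subunits. In matKO ExE 3 of 14 antigen presentation and interferon genes were higher and 0 lower, beside 14.9% and 11.4% of all genes: the MHC class I genes H2-D1 (10.1 CPM in WT, 36.6 CPM in matKO; 1.90 ± 0.27) and H2-K1 (1.04 ± 0.29), and Bst2, an interferon-induced membrane protein (1.74 ± 0.42). The immune cell markers, 1 of 4 of which was called higher there, summed to between 2.01 and 16.4 CPM in WT and between 6.56 and 38.3 CPM in matKO ExE, and their part in these values was not tested. Of 14 protein-folding stress genes in ExE, 2 were higher and 6 lower, beside the same shares of all genes, with Ddit3 at 2.19 ± 0.47 and Hsph1 at -1.27 ± 0.29. In blastocysts 4 of 14 were higher and 0 lower, beside 2.65% and 3.48% of all genes, namely Atf4 (0.55 ± 0.10), Hspa8 (0.71 ± 0.14), Ddit3 (0.75 ± 0.20) and Hsp90aa1 (0.45 ± 0.13).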

How the data were processed

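The deposited files are raw counts per gene for each stage; per the submitters' processing notes, Trim Galore, STAR, SAMtools and featureCounts were used with mm10 to make them. No source states versions, strand or multi-mapping settings. Samples were grouped by title; 8 table columns matched no sample and were not used. The members and gene lists were chosen with earlier results of these data known.

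Genes were filtered with edgeR's filterByExpr (minimum count 10), TMM-scaled and tested with edgeR 4.0.16 (estimateDisp, robust glmQLFit, glmQLFTest, R 4.3.3), with sex, and in blastocysts identifier prefix, as terms. Genotypes were compared within each stage and stages within each genotype on joined tables; p-values were adjusted over all genes of a fit (Benjamini-Hochberg, threshold 0.05). Levels are CPM scaled within stage, so levels of different stages, and overlap between them, are approximate. The log2 changes of the steps come from fits scaled over both stages. Counts of replicates differed beyond sampling noise in all 183 pairs (chi-square per degree of freedom at least 10.1), so no libraries were merged.

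Values are given for the catalytic, alternative, activator and inhibitor genes, Psma8, and, per comparison, the called members of smallest p, at most 8; for other lists, up to 4 called genes, and Nfe2l1 always. Other members are named by level or call. One gene of the pathway list is not reported here. Alternatives were DESeq2 1.42.0, edgeR's newer dispersion, RLE scaling, no count filter, a replicate block, single prefixes or sexes, marker covariates and left-out libraries. The fits were tested on simulated data.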

Additional observations from a re-analysis of the deposited data

Results flagged for a closer look

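Of 45 groups of 4 to 10 values (catalytic, alternative, activator and inhibitor genes, Psma8, Psmd10 and the sum of the 48 genes), 7 had a highest or lowest library far from the rest by Dixon's test. Chance gives about 1 in 20 for normally distributed values. CPM of genes near 0, such as Psma8, need not follow that rate, so the number flagged is not compared with chance. Groups of that size were matKO oocytes and both ExE groups, so 2C embryos and blastocysts were not tested; all 7 were in ExE. In WT, Psmd10 had 161 CPM in female 6 against 60 CPM in the next library, Psme4 85.3 CPM in female 4 against 138 CPM, and Psma8 3.28 CPM in male 2 against 1.12 CPM. In matKO, male 3 had 456 CPM of Psmb10 against 248 CPM in the next library and 3.77 CPM of Psmb9 against 1.67 CPM, male 1 had 144 CPM of Psme4 against 110 CPM, and female 4 had 0.639 CPM of Psma8 against 0.278 CPM.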

How the results depend on the processing

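The counts of called members moved by over 1.5 times under these alternatives. For 2C embryos, matKO over WT, 0 became 2 with DESeq2, 4 with the cumulus and granulosa markers as a covariate and 30 without the embryos numbered 37 to 41, where Psmb5 turned to -0.80. For blastocysts, 2 became 1 without a count filter and 0 within D707T, in females alone and in males alone. Within D707T, 1.11% of all genes were called. That share is not given for the other blastocyst fits named here, so their counts are not read as a result about the members. For ExE, 14 became 6 with the decidua covariate, 6 in females and 1 in males. From oocyte to 2C embryo, 20 matKO calls became 35 without the embryos numbered 37 to 41, and 18 WT calls became 29 without those numbered 25 to 27, both chosen after seeing the data. The share of all genes called rose too in that WT fit, from 39.1% to 52.7%. It is not given for the matKO fit, so the matKO count is not read as a result about the members. In the matKO step to the blastocyst, Psme1 turned to -0.08 without the embryos numbered 42 to 48. Scaling by RLE moved the median log2 change of all genes by over 0.1 in the steps only, to -0.24, -0.23 and 0.22 in WT and -0.13, -0.35 and 0.15 in matKO. The number of genes called in 2C embryos was 87 with the main test, 439 with edgeR's newer dispersion, 675 with DESeq2 and 16 with the replicate block; in blastocysts it was 847, 1794, 1335 and 408, and in oocytes 3, or 36 with DESeq2.

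Between genotypes, leaving out each library in turn gave 0 to 0 calls in oocytes and 2C embryos, 0 to 3 in blastocysts and 12 to 16 in ExE. Over all genes, the same fits called 1 to 4 in oocytes, 41 to 228 in 2C embryos, 606 to 915 in blastocysts and 2818 to 3597 in ExE. Elsewhere only libraries of groups of at most 5 were left out: for genotype by sex 5 of 23 in 2C embryos and 12 of 18 in ExE, with 0 to 0 calls, and from oocyte to 2C embryo the oocytes, with 14 to 14 calls in WT and 14 to 19 in matKO. Over all genes, the fits without an oocyte called 4904 to 5093 in WT and 6387 to 6622 in matKO. The replicate numbers do not pair the samples: deviations of same-numbered libraries correlated at -0.18 to 0.13 in oocytes, -0.17 to 0.28 in 2C embryos, -0.08 to 0.42 in blastocysts and -0.37 to 0.10 in ExE, and 1 of 3, 3 of 11, 3 of 13 and 0 of 8 pairs correlated best with their own number. With the replicate block the counts of calls were 0 in oocytes, 0 in 2C embryos, 2 in blastocysts, 12 in ExE and, for the steps, 19, 40 and 37 in WT and 28, 43 and 30 in matKO. The shares of all genes called in those step fits are not given, so these counts are not read as a result about the members. With 1049224 counts in the shallowest library, members below a few CPM, such as Psmb9 and Psma8, were not reliably measured in 2C embryos.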
